A study of Mus musculus with 1152 samples.

Results

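The mitochondrially encoded genes are the genes carried by the mitochondrial genome itself. They were taken as every gene of the count table whose symbol starts with mt-, which gave 37 of 48587 genes, and they comprised 13 protein-coding genes, 2 ribosomal RNA (rRNA) genes and 22 transfer RNA (tRNA) genes. The rule reads the symbols alone. In the kept cells they received 5442981 reads, 2.05% of all reads in genes.

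Mitochondria produce most of the ATP of a cell by oxidative phosphorylation, and their small circular genome encodes core subunits of respiratory complexes I, III and IV and of the ATP synthase, together with the rRNAs and tRNAs that translate them. Both strands are transcribed as long precursors that are cut at the tRNAs, and all other mitochondrial proteins are encoded in the nucleus. In microglia, the resident macrophages of the brain, the balance between oxidative phosphorylation and glycolysis is known to shift with activation, and a high share of mitochondrial reads in a single cell is widely used as a warning of cell damage.

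Single microglia were sorted into wells from 3 brain regions (cortex, hippocampus, cerebellum) of mice that were either wild-type (WT) or 5xFAD, a line in which mutant human amyloid precursor protein and presenilin transgenes under the neuronal Thy1 promoter cause amyloid plaques. The labels give strain C57BL/6J for both genotypes and no ages. Brains were perfused, myelin was removed on a Percoll gradient, cells were stained for CD11b, CD45, Ly6C, Ly6G and CD206, and libraries were made by the Smart-seq2 method, which covers whole transcripts and adds no molecular identifiers. The design asks how the 5xFAD genotype changes microglia in each region and how the regions differ, and the regions are stated to come from the same mice.

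Of 1140 wells labelled as cells, 1041 were kept (500 or more genes, 10000 or more gene reads and an mt- share of 20% or less), and 10 wells were dropped by the mt- limit alone. The kept WT cells were 167 of cortex, 182 of hippocampus and 162 of cerebellum, from 4 mice in each region, and the kept 5xFAD cells were 183 of cortex (4 mice), 154 of hippocampus (3 mice) and 193 of cerebellum (3 mice). For each mouse and region the kept cells were added up, giving 22 sums of 5696201 to 26669220 reads, and the mouse was the replicate. Each group lay on 1 plate: WT cortex and WT hippocampus on the first, WT cerebellum and 5xFAD cortex on the second, 5xFAD hippocampus and 5xFAD cerebellum on the third. Genotype within a region therefore cannot be told apart from plate, while hippocampus against cortex in WT and hippocampus against cerebellum in 5xFAD were compared within a plate. All 10 microglia markers had reads in every group, at 48589 to 73392 CPM (reads scaled to a total of 1000000 reads in genes) for the list as a whole. The neutrophil list summed to 15401 CPM in 5xFAD cerebellum mouse 3, against at most 855 CPM in the other 21 sums, and results that use this mouse are also given without it where that changes a count.

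The members differed widely in level, and a block of the mitochondrial genome had few assigned reads. The large rRNA mt-Rnr2 was highest per length, at 5213 CPM per kilobase over all kept cells, and took 40.3% of all mt- reads. It was followed by mt-Cytb, the mitochondrial subunit of complex III, at 2833 CPM per kilobase and 15.8% of mt- reads. The complex I subunit gene mt-Nd1 had 2714 CPM per kilobase (12.7%), and mt-Co1, the catalytic subunit of complex IV, had 2313 CPM per kilobase (17.5%). The small rRNA mt-Rnr1, although part of the same ribosome as mt-Rnr2, had 745 CPM per kilobase (3.47%). The other complex I genes with reads were lower, with mt-Nd5 at 657 CPM per kilobase, mt-Nd4 at 386, mt-Nd2 at 222, mt-Nd6 at 199 and mt-Nd3 at 4.36. Of the 299 50-base windows of mt-Nd3, 293 are shared with a pseudogene on chromosome 1, so its level is uncertain. mt-Nd6 is the only protein-coding member on the light strand, and whether the reads counted for it came from RNA of that strand was not tested. The 5 members with most reads held 92.1% of mt- reads, and mt-Rnr2 was detected in 1040 of the 1041 kept cells.

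Across the 22 sums, the level per kilobase ranged from 3431 to 11479 CPM for mt-Rnr2, from 1960 to 4764 for mt-Cytb, from 1955 to 4477 for mt-Nd1 and from 1483 to 4652 for mt-Co1. The ranges of all 4 genes overlap, so that their order per kilobase does not hold beyond the spread between the sums. The ranges of mt-Nd2, 124 to 371, and mt-Nd6, 112 to 439, overlap as well.

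Of the 37 members, 10 had no read in any labelled well. They were the protein-coding genes mt-Co2 and mt-Co3 (complex IV), mt-Atp6 and mt-Atp8 (ATP synthase) and mt-Nd4l (complex I), and the tRNA genes mt-Ty, mt-Ts1, mt-Td, mt-Tk and mt-Th. No read was therefore assigned to the mitochondrial genes of the ATP synthase. Of these 10 genes, 8 lie in a stretch of the mitochondrial genome, position 6381 to 11042, that has a near-identical copy on chromosome 1 (GRCm38, chr1:24611535-24616197, minus strand) annotated in GENCODE M21 as 7 pseudogenes. The annotated pseudogenes shared 632 of the 635 50-base windows of mt-Co2, 734 of 735 of mt-Co3, 629 of 632 of mt-Atp6 and 245 of 248 of mt-Nd4l. They shared 0 of 155 windows of mt-Atp8 and none of mt-Ts1, mt-Td and mt-Tk, which lie in the stretch between or beside the annotated copies. mt-Co1 and mt-Nd4 lie partly in the stretch, with 51.1% and 62.2% of windows shared with another annotated gene. Their levels, and those of the members inside the stretch, are therefore uncertain. How reads matching more than 1 place were counted is not given in the sources used here. A 0 inside the stretch means that no read was assigned, and shares of mt- reads cover assigned reads only. Only 2 genes at 0, mt-Ty and mt-Th, lie outside the stretch. The plot of levels in genome order shows the gap.

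**Figure D1:**
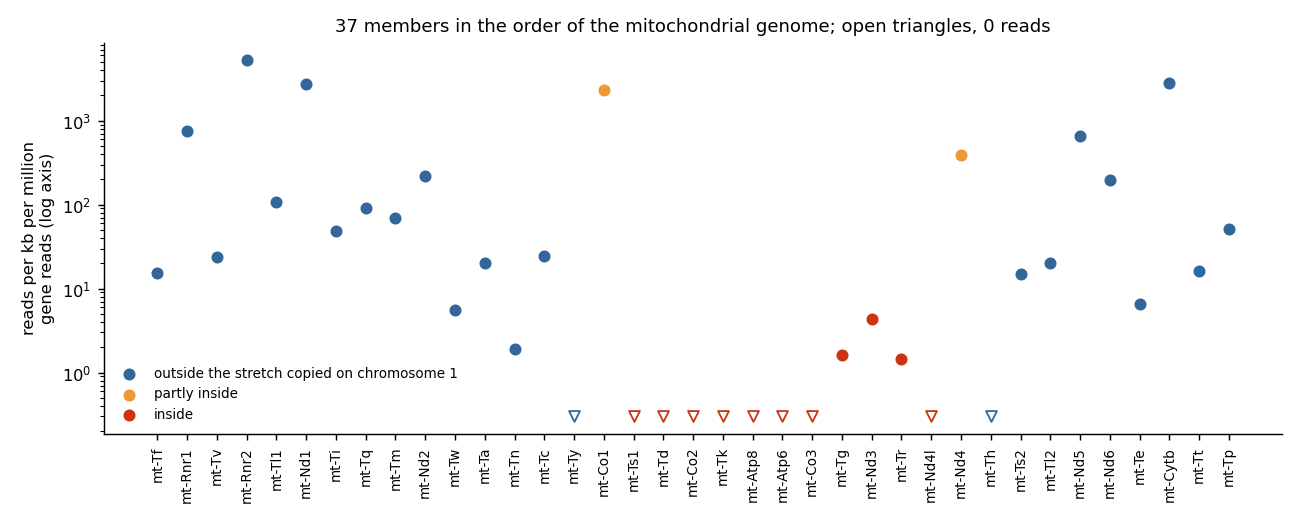
Level of each of the 37 members (vertical axis, CPM per kilobase, log axis) in the order of the mitochondrial genome (horizontal axis), over all 1041 kept cells. Open triangles mark the 10 members with 0 reads, which are placed at the bottom because 0 has no place on a log axis, and 8 of them lie inside the stretch copied on chromosome 1.

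Inside the stretch, 3 members did have reads, and all of their reads came from WT mice. mt-Nd3, a small complex I subunit, had reads in all 12 WT sums and in none of the 10 5xFAD sums, while its chromosome 1 copy, the pseudogene Gm28438, showed the opposite. The start of the gene and of its copy is shown because they differ there, with the differing base in capitals, 5′ to 3′.
mt-Nd3: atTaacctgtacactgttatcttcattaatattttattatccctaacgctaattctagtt
Gm28438: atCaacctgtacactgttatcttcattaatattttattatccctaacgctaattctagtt
The first sequence is position 9459 to 9518 of the mitochondrial genome, plus strand, and the second is chr1:24613060-24613119, minus strand (GRCm38, from GENCODE M21 transcripts). mt-Nd3 spans position 9459 to 9806, and Gm28438 spans chr1:24612775-24613119. Over the 345 bases aligned there was 1 difference, T3C, counted from 1 at the 5′ end of mt-Nd3, with mt-Nd3 given first. Away from this base and from the last bases of mt-Nd3, the reference sequences of both genes are identical.

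mt-Nd3 had 28, 42, 39 and 43 reads in the 4 WT cortex sums, 32, 40, 23 and 46 in WT hippocampus and 15, 23, 33 and 39 in WT cerebellum. All 10 5xFAD sums were at 0, so the genotypes did not overlap in any region. Gm28438 had 54, 43, 80 and 52 reads in 5xFAD cortex, 120, 234 and 76 in 5xFAD hippocampus and 55, 51 and 76 in 5xFAD cerebellum. In WT it had 5 reads in cortex mouse 2, 1 read in hippocampus mouse 1 and 0 in the other 10 sums. In CPM, mt-Nd3 was 4.91 to 5.43 in WT cortex, 2.05 to 4.41 in WT hippocampus and 2.26 to 3.68 in WT cerebellum. Gm28438 was 4.07 to 7.07 in 5xFAD cortex, 5.41 to 12.5 in 5xFAD hippocampus and 2.85 to 2.91 in 5xFAD cerebellum.

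**Figure D2:**
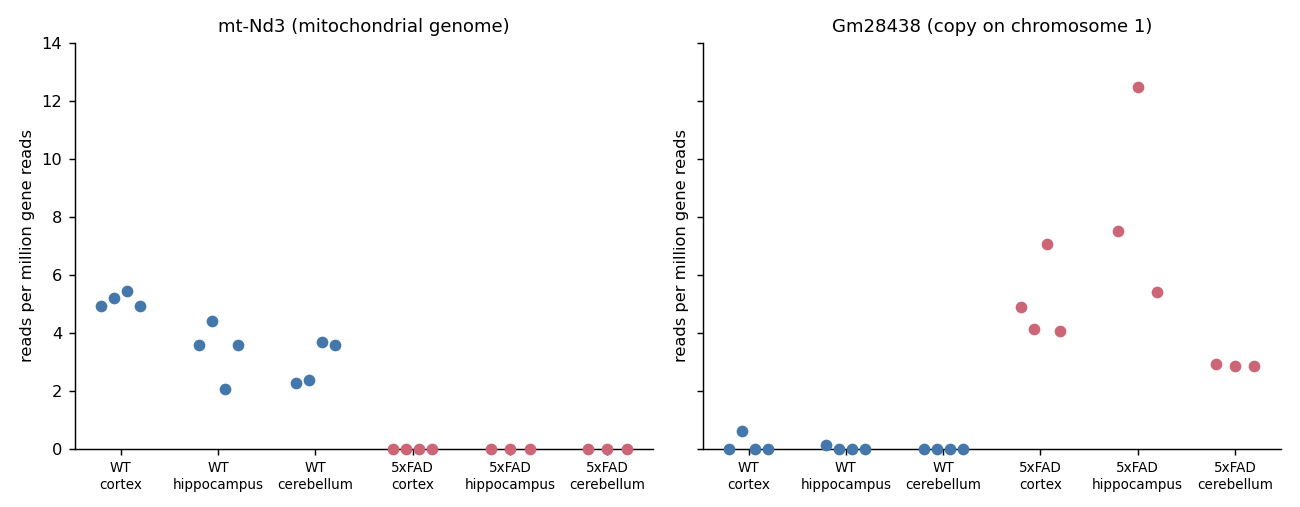
CPM (vertical axis) of mt-Nd3 and of its chromosome 1 copy Gm28438 in each of the 22 sums, by group; each point is 1 mouse. mt-Nd3 has points above 0 in the 12 WT sums alone, and Gm28438 reaches 2.85 or more in each of the 10 5xFAD sums and stays below 1 in WT.

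Set against a floor of 3 counts over the group, mt-Nd3 was at least 77.7-fold lower in 5xFAD than in WT cortex, at least 54.4-fold lower in hippocampus and at least 64.3-fold lower in cerebellum. Gm28438 was 29.9-fold higher in 5xFAD cortex (229 against 5 reads, scaled to depth) and at least 34.6-fold higher in 5xFAD cerebellum. These folds are of the reads assigned to each gene. Added together, mt-Nd3 and Gm28438 had 4.07 to 7.07 CPM in 5xFAD and 4.91 to 5.81 CPM in WT cortex, and 2.85 to 2.91 CPM against 2.26 to 3.68 CPM in cerebellum, so that the genotypes overlapped in both regions. In hippocampus the sum was 5.41 to 12.5 CPM in 5xFAD and 2.05 to 4.41 CPM in WT, which did not overlap. The folds of mt-Nd3 therefore cannot be read as a difference in the RNA of mt-Nd3 itself, and which base the mitochondrial genomes of these mice carried at the differing position, and so where their reads were assigned, was not tested. By cell, mt-Nd3 had a read in 201 of 511 kept WT cells and in 0 of 530 kept 5xFAD cells, which by counting error alone allows a share of cells with a read of up to 0.566%. Gm28438 had a read in 277 of the 530 5xFAD cells and in 3 of the 511 WT cells. On the second plate, which carried WT cerebellum and 5xFAD cortex, 58 wells had a mt-Nd3 read, all of them WT, and 98 had a Gm28438 read, all of them 5xFAD. The 12 blank wells had no read of either gene. mt-Nd3 entered the edgeR quasi-likelihood test (Benjamini-Hochberg adjustment over 17358 genes) through its WT reads alone, so its p-values are given as a description and it is left out of the counts of called members that follow, unless they name it. The adjusted p was 0.0290 in cortex, 0.0340 in hippocampus and 0.178 in cerebellum. On leaving out any 1 mouse it was 0.0503 to 0.0924 in cortex and 0.0510 to 0.206 in hippocampus, with the fitted log2 fold change, which depends on the prior count, at -8.95 to -8.90 and -8.52 to -8.20. Gm28438 had an adjusted p of 0.375, 0.0604 and 0.288 in cortex, hippocampus and cerebellum.

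Both tRNA genes that flank mt-Nd3 had few reads, all of them in WT. mt-Tg had 29 reads in 15 WT cells, in 9 of the 12 WT sums, and 0 in 5xFAD cells. Of these, 28 lay on the first plate, which holds no 5xFAD cells, so that for mt-Tg genotype and plate cannot be told apart. mt-Tr had 26 reads in 21 WT cells, in 10 of the 12 WT sums, and 0 in 5xFAD cells, with 15 reads on the first plate and 11 on the second. mt-Tr, position 9808 to 9875 on the plus strand, is shown because it fills 68 of the 73 bases between 2 pseudogene copies, a gap whose length differs between the mitochondrial genome and chromosome 1. Its longest run of a single base, 8 bases, is in capitals as a landmark, 5′ to 3′.
mt-Tr: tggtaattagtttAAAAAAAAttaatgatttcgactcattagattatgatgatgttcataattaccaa
The same gap has 74 bases on chromosome 1. It also holds the last bases of mt-Nd3, and since the chromosome 1 sequence at this place was not used here, where in the gap the additional base lies was not determined. The other 6 pseudogenes of the stretch had 0 to 4 reads in any sum.

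The share of reads on mitochondrially encoded genes was similar in 5 of the 6 groups and higher in 5xFAD hippocampus. It was 3.23%, 4.07% and 2.36% of gene reads in the 3 5xFAD hippocampus sums (mean 3.22% ± 0.86, SD, n = 3), against 1.60%, 1.67%, 1.65% and 1.71% in WT hippocampus (1.66% ± 0.05, SD, n = 4). The 3 5xFAD hippocampus mice were above all 19 other sums, which ran from 1.52% to 2.01%. The group means elsewhere were 1.84% ± 0.12 in WT cortex, 1.75% ± 0.20 in WT cerebellum, 1.80% ± 0.15 in 5xFAD cortex and 1.80% ± 0.15 in 5xFAD cerebellum, and these groups overlapped. In 5xFAD hippocampus the rRNA members took 1.00% to 1.98% of gene reads, against at most 0.866% in any other sum. The protein-coding members took 1.35% to 2.08%, against at most 1.20% in any other sum.

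Cells with an unusually high share carried a large part of this difference. With a line set at 5% after the values were seen, 21 of the 154 kept cells of 5xFAD hippocampus lay above it, 7, 10 and 4 in the 3 mice, which is 13.6% of cells. Above it were 1 cell of WT cortex, 4 of WT hippocampus, all from mouse 3, 2 of WT cerebellum, 4 of 5xFAD cortex and 6 of 5xFAD cerebellum. Without these cells the share in 5xFAD hippocampus was 1.95%, 2.22% and 2.01%, against 1.48% to 1.92% in the other 19 sums, so that the mice still did not overlap. The difference of the means from WT hippocampus was 1.56 percentage points with all kept cells, 0.776 with a limit of 10% on the share and 0.439 without cells above 5%. The median over cells, which a few cells cannot move far, was 2.10%, 2.26% and 2.14% in the 3 5xFAD hippocampus mice and 1.27% to 1.82% in the other sums. Cells above 5% in 5xFAD hippocampus had a median of 1880 genes, against 2973 in the other cells of the group. Their median of gene reads was 337826, against 325176. The median of genes was lower in cells above 5% of every other group too, at 1329 to 2167 against 2394 to 2835, from 1 to 6 such cells per group. The part of this lower gene number in the higher share was not tested.

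**Figure D3:**
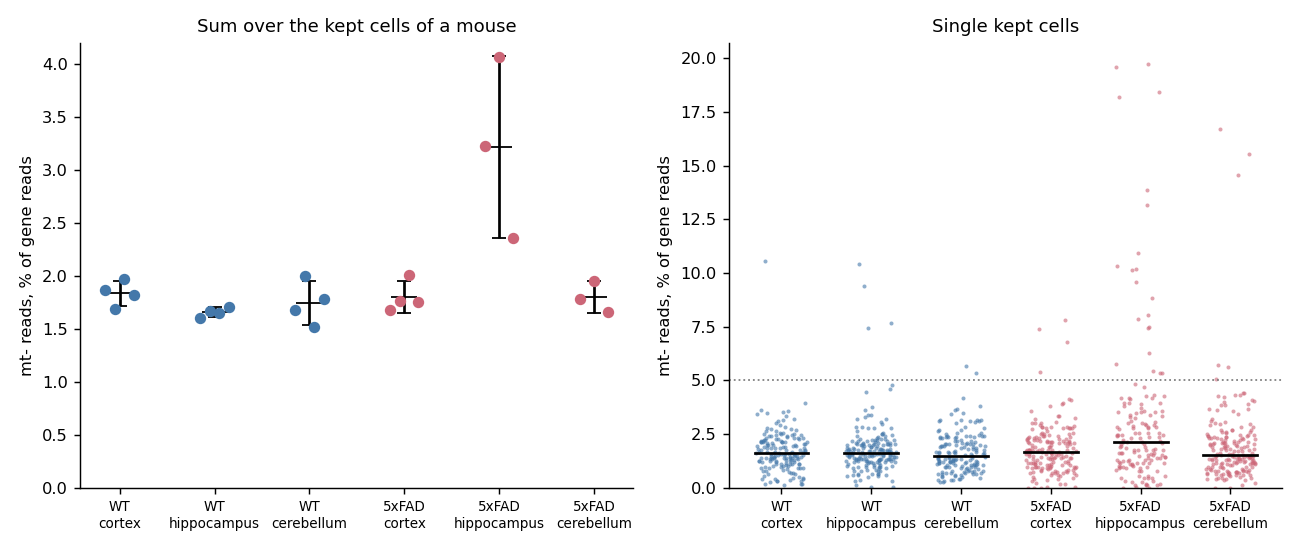
Share of gene reads on mitochondrially encoded genes (vertical axes, percent), by group. Left, each point is the sum over the kept cells of 1 mouse, with the group mean and SD; right, each point is 1 kept cell, with the group median as a bar, the dotted line at 5% and cells above 20% left out by the cell filter. The 3 sums of 5xFAD hippocampus lie between 2.36% and 4.07%, above the other 19 sums.

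Spike-in RNA (ERCC), added in the same wells, gave a scale that does not depend on nuclear reads. There were 14.4 to 15.0 mt- reads per ERCC read in the 5xFAD hippocampus sums and 5.86 to 7.10 in WT hippocampus. In 5xFAD cerebellum, on the same plate as 5xFAD hippocampus, there were 7.31 to 8.07, in 5xFAD cortex 8.0 to 11.5, in WT cortex 5.65 to 7.66 and in WT cerebellum 3.46 to 5.46. On this scale too the 3 mice of 5xFAD hippocampus were above all others. In cortex and cerebellum the 5xFAD mice were above the WT mice as well. Nuclear reads per ERCC read were also higher there, at 470 to 642 in 5xFAD against 329 to 413 in WT cortex and 367 to 446 against 203 to 354 in cerebellum. In hippocampus they overlapped, at 340 to 623 against 348 to 408. Between genotypes, a difference on this scale cannot be told apart from plate.

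Gene by gene, 8 of the 9 tested protein-coding and rRNA members with reads in both genotypes rose in 5xFAD against WT hippocampus, and mt-Nd2 did not pass (edgeR, adjusted p threshold 0.05). Over all 17358 genes, 0.76% were called higher and 0.253% lower in this comparison. Only members that passed the filter on low counts were tested, 22 of 37: 8 protein-coding, 2 rRNA and 12 tRNA. The median log2 fold change of the 9 members was 0.99, against 0.10 over all genes. The mouse values did not overlap for the same 8 higher members, where 7.21% of all genes did not overlap in the higher direction. In the lower direction, where mt-Nd3 lay, 3.8% did not overlap.

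Both rRNAs of the mitochondrial ribosome rose. mt-Rnr2 had 14137, 18160 and 9348 CPM in the 5xFAD hippocampus mice and 6377, 7193, 6891 and 7469 CPM in the WT hippocampus mice, a log2 fold change of 1.16 ± 0.15 (SE, adjusted p = 7.31e-05). mt-Rnr1 had 981, 1654 and 657 CPM in 5xFAD and 482, 456, 440 and 480 CPM in WT, a log2 fold change of 1.41 ± 0.22 (adjusted p = 0.00063). For both, 5xFAD mouse 2 was highest and mouse 3 lowest, and each 5xFAD mouse was above every WT mouse.

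Among the respiratory subunits, mt-Co1 of complex IV had the smallest p. It had 5828, 7187 and 4506 CPM in 5xFAD hippocampus and 2566, 2480, 2687 and 2471 CPM in WT hippocampus, a log2 fold change of 1.36 ± 0.13 (adjusted p = 1.18e-06). mt-Nd5, a proton-pumping subunit of complex I, had 1962, 2227 and 1595 CPM against 919, 1114, 964 and 907 CPM, a log2 fold change of 1.15 ± 0.12 (adjusted p = 9.12e-06). The groups did not overlap for either gene. mt-Cytb of complex III had 4743, 5450 and 3552 CPM against 2837, 2254, 2712 and 2561 CPM, a log2 fold change of 0.99 ± 0.16 (adjusted p = 0.00110). mt-Nd1 of complex I had 3498, 4284 and 2972 CPM against 2122, 2427, 2001 and 2291 CPM, a log2 fold change of 0.86 ± 0.14 (adjusted p = 0.00151). The order of the 5xFAD mice was the same in all of these genes, with mouse 2 first and mouse 3 last. The light-strand gene mt-Nd6 rose as well, with 162, 228 and 136 CPM against 91.8, 108, 103 and 102 CPM, a log2 fold change of 0.96 ± 0.22 (adjusted p = 0.0355). Its call was lost in 14 of 19 alternatives, among them 6 of the 7 that left out a mouse, all but that without 5xFAD mouse 3, with log2 fold changes of 0.74 to 1.12. mt-Nd4 rose by 0.88 ± 0.17 (adjusted p = 0.00835), a call lost in 5 of 19 alternatives, among them that without 5xFAD mouse 2, whereas mt-Nd2 had 0.49 ± 0.25 (adjusted p = 0.399) and its groups overlapped, at 305, 385 and 184 CPM against 189 to 265 CPM in WT.

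With a limit of 10% on the mt- share in place of 20%, 4 of the 9 members were called (mt-Rnr1, mt-Rnr2, mt-Co1 and mt-Nd5), mt-Co1 had a log2 fold change of 0.99 and mt-Rnr2 had 0.72. The p-values measure the spread between these sums, in which cells count by their reads.

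**Figure D4:**
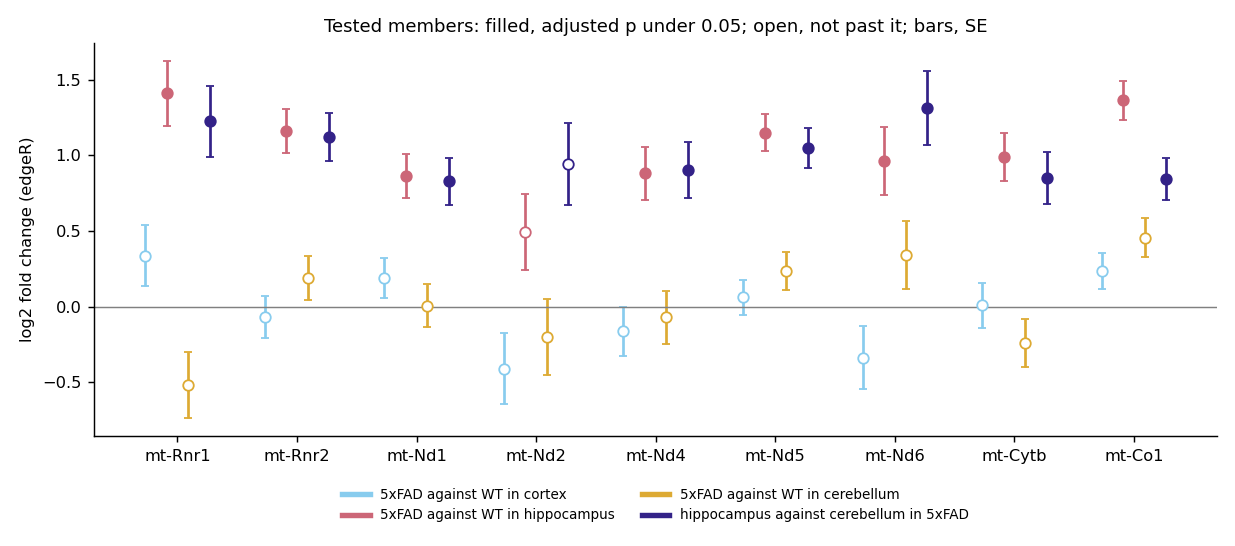
Log2 fold change (vertical axis) of the 9 tested protein-coding and rRNA members with reads in both genotypes, in 4 comparisons told apart by colour; bars are the SE, filled points passed an adjusted p of 0.05 and open points did not. The 2 comparisons with 5xFAD hippocampus as the first group lie between 0.49 and 1.41, and those of cortex and cerebellum between -0.52 and 0.46.

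In cortex and cerebellum the members with reads in both genotypes did not pass the test between genotypes. In cortex 0 of the 9 were called by edgeR, DESeq2 or limma and 0 had an unadjusted edgeR p under 0.05, and the median of the 9 was 0.01, against -0.09 over all genes. Called lower were 0.0518% of all genes, mt-Nd3 among them. mt-Co1 had 2924, 3193, 3584 and 2872 CPM in 5xFAD cortex and 2936, 2613, 2944 and 2722 CPM in WT cortex, a log2 fold change of 0.24 ± 0.12 (edgeR, adjusted p = 0.442). In CPM these mice overlapped, and on the scale of the TMM normalization used for the test they did not. On that scale 2 members, mt-Co1 and mt-Rnr1, were higher and mt-Nd3 lower with no overlap in cortex, where 3.06% of all genes were higher and 2.66% lower in this way. In cerebellum 0 of the 9 were called by edgeR, DESeq2 or limma, where edgeR called 0.0461% of all genes, and 2 had an unadjusted edgeR p under 0.05 (8.92% of all genes). mt-Co1 had 3656, 4058 and 3113 CPM in 5xFAD cerebellum and 2292, 2896, 2760 and 3032 CPM in WT cerebellum, which did not overlap (0.46 ± 0.13, adjusted p = 0.42). mt-Rnr1 had 471, 529 and 563 CPM against 811, 984, 579 and 727 CPM (-0.52 ± 0.22, adjusted p = 0.552). Besides mt-Co1, mt-Nd6 was higher (0.34 ± 0.23, adjusted p = 0.698) and mt-Nd3 lower with no overlap, where 3.93% of all genes were higher and 2.62% lower in this way. The median of the 9 members in cerebellum was 0.01, against -0.01 over all genes. Scaled to ERCC, the medians of all genes moved to 0.40 in cortex, 0.29 in hippocampus and 0.47 in cerebellum and those of the members to 0.52, 1.12 and 0.52. On that scale edgeR called 2 of the 9 members higher in cortex, mt-Rnr1 and mt-Co1, beside 148 of all 17358 genes, and 0 of the 9 in cerebellum. With no filter on low counts mt-Co1 was called higher in cerebellum.

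Whether the genotype effect differed between regions was tested by interaction terms, which share the hippocampus groups with each other. Plate does not cancel in these terms, so that a difference between effects cannot be told apart from plate. Against cortex, the effect in hippocampus was larger for 3 of 9 members, where 0.0403% of all genes were called higher: mt-Co1 by 1.13 ± 0.17 on the log2 scale (adjusted p = 0.0162), mt-Nd5 by 1.09 ± 0.17 (adjusted p = 0.0162) and mt-Rnr2 by 1.23 ± 0.20 (adjusted p = 0.0219). Against cerebellum it was larger for 5 of 9, where 0.248% of all genes were called higher: mt-Rnr1 by 1.93 ± 0.31 (adjusted p = 0.00429), mt-Cytb by 1.23 ± 0.23 (adjusted p = 0.0159), mt-Nd5 by 0.91 ± 0.18 (adjusted p = 0.0229), mt-Co1 by 0.91 ± 0.18 (adjusted p = 0.0290) and mt-Rnr2 by 0.97 ± 0.21 (adjusted p = 0.0433). The cerebellar effect did not differ from the cortical one past the threshold in any of the 9 (edgeR, 0.0807% of all genes called, 2 members and 9.85% of all genes at an unadjusted p under 0.05, DESeq2 0, limma 0). With ERCC scaling, a 10% limit on the mt- share or the columns as deposited, the term against cortex had 0 members and 0 of all genes called, with a median of the 9 members of 0.64, 0.60 and 0.88. The term against cerebellum had 0 members called with ERCC scaling, 1 with the 10% limit and 0 with the columns as deposited. The medians were 0.54, 0.55 and 0.83. The columns as deposited include 96 that also hold the counts of other wells, among them wells of other groups. The call count of the term against cortex also moved with single mice: 0 members were called without WT hippocampus mouse 3, 5xFAD cortex mouse 4, 5xFAD hippocampus mouse 1 or 5xFAD hippocampus mouse 2, and 1 without WT hippocampus mouse 2. For the term against cerebellum, 1 member remained called without 5xFAD hippocampus mouse 2 or 5xFAD cerebellum mouse 3, mt-Rnr1 in each case. Without WT hippocampus mouse 4, 5xFAD hippocampus mouse 1 or 5xFAD cerebellum mouse 2 there were 2, and 3 without WT hippocampus mouse 1, 2 or 3, WT cerebellum mouse 2 or 5xFAD cerebellum mouse 1.

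Within the third plate, 8 of the 9 members were higher in hippocampus than in cerebellum of 5xFAD mice, where 0.207% of all genes were called higher, and this comparison shares the 5xFAD hippocampus mice with those above. The largest fold change was that of mt-Nd6, at 162, 228 and 136 CPM in hippocampus and 79.9, 76.6 and 77.9 CPM in cerebellum (1.31 ± 0.25, adjusted p = 0.0184). Its call was lost in 12 alternatives and kept in 6. mt-Nd5 had 1118, 898 and 1079 CPM in 5xFAD cerebellum, against the hippocampal values given above (1.05 ± 0.13, adjusted p = 0.000322). mt-Rnr2 had 6835, 7552 and 6865 CPM in cerebellum (1.12 ± 0.16, adjusted p = 0.00143). In these 3 genes every hippocampus sum was above every cerebellum sum. mt-Co1 had 3656, 4058 and 3113 CPM in cerebellum (0.84 ± 0.14, adjusted p = 0.00577). mt-Nd1 had 2259, 2347 and 2094 CPM (0.83 ± 0.15, adjusted p = 0.0184) and mt-Rnr1 had 471, 529 and 563 CPM (1.22 ± 0.23, adjusted p = 0.0220). mt-Cytb (0.85 ± 0.17, adjusted p = 0.0367) and mt-Nd4 (0.90 ± 0.19, adjusted p = 0.0421) were called as well, and mt-Nd2 was not (0.94 ± 0.27, adjusted p = 0.341). The 8 called members did not overlap between the regions, where 7.3% of all genes did not overlap in this direction, and the median of the 9 was 0.94, against 0.03 over all genes. The number called fell to 3 without 5xFAD hippocampus mouse 1, to 2 without 5xFAD hippocampus mouse 2, to 4 without 5xFAD cerebellum mouse 1 or 2 and to 2 without 5xFAD cerebellum mouse 3, the mouse with neutrophil markers, where mt-Rnr2 and mt-Nd5 were the 2 called. It was 4 with a replicate block, 2 with a 10% limit on the mt- share, 2 with limma and 0 with the columns as deposited or only the groups compared. It was 0 with ERCC scaling, where the fold changes of the 8 members stayed at 0.82 to 1.28 and 0 of all 17358 genes were called. Border macrophage markers summed to 302 to 573 CPM in 5xFAD cerebellum and 6.05 to 14.6 CPM in 5xFAD hippocampus. Monocyte markers summed to 50.5 to 2192 CPM and 3.04 to 10.1 CPM. The microglia markers overlapped, at 55165 to 58416 CPM and 50722 to 57221 CPM. The part of these markers in the comparison was not tested.

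Hippocampus against cortex in 5xFAD gave 3 of 9 members higher, where 0.0288% of all genes were called higher. In 7 of 9 members every hippocampus sum was above every cortex sum, against 4.96% of all genes. Those called were mt-Rnr2 (1.19 ± 0.15, adjusted p = 0.000805), mt-Co1 (1.00 ± 0.13, adjusted p = 0.000805) and mt-Nd5 (0.91 ± 0.12, adjusted p = 0.00139). With ERCC scaling 0 of the 9 and 0 of all 17358 genes were called, with a median of 0.42 for the 9 and -0.15 for all genes, and these regions lay on different plates. With a 10% limit on the mt- share mt-Rnr2 alone was called, and the median of the 9 fell from 0.73 to 0.28, against 0.08 for all genes. With the columns as deposited 0 were called, with a median of 0.62. Cerebellum against cortex in 5xFAD gave 0 of 9 (edgeR, 0.0576% of all genes called, 1 member and 8.19% of all genes at an unadjusted p under 0.05, DESeq2 0, limma 0). There mt-Rnr1 and mt-Nd1 were lower with no overlap, 2 of 9, against 3.85% of all genes.

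In WT mice, where mt-Nd3 had reads and is counted, edgeR called none of the 10 members between regions. Hippocampus against cortex, within the first plate, gave 0 (0.0% of all genes called, 0 members and 10.5% of all genes at an unadjusted p under 0.05, DESeq2 0, limma 0). Yet mt-Rnr1, mt-Nd3, mt-Nd4 and mt-Cytb, 4 of 10, were lower in hippocampus with no overlap, against 1.86% of all genes, with log2 fold changes of -0.57 to -0.25. Cerebellum against cortex gave 0 (0.277% of all genes called, 3 members and 12% of all genes at an unadjusted p under 0.05, DESeq2 1, limma 0), and hippocampus against cerebellum gave 0 (0.374% of all genes called, 3 members and 13.7% of all genes at an unadjusted p under 0.05, DESeq2 2, limma 0). In the former mt-Nd3, mt-Nd4, mt-Nd5 and mt-Nd6 were lower with no overlap, 4 of 10, against 2.45% of all genes. In the latter mt-Nd6 was higher and mt-Rnr1 lower with no overlap, against 2.47% and 2.49% of all genes. The light-strand gene mt-Nd6 was the member DESeq2 called in cerebellum against cortex, where it called 549 of all 17358 genes. In hippocampus against cerebellum DESeq2 called mt-Nd6 and mt-Rnr1, among 710 of all 17358 genes. mt-Nd6 had 57.9, 59.96, 72.6 and 66.7 CPM in WT cerebellum, below all 4 mice of WT cortex (90.6 to 133 CPM) and of WT hippocampus (91.8 to 108 CPM), with edgeR adjusted p of 0.136 and 0.213.

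The makeup of the mt- reads varied between members. mt-Rnr2 took 35.8% to 44.6% of mt- reads over the 22 sums, mt-Cytb 13.4% to 22.9%, mt-Co1 13.7% to 20.7% and mt-Nd1 10.5% to 15.7%. The range was wider relative to the level for mt-Rnr1, 2.64% to 4.92%, and mt-Nd2, 0.720% to 1.86%. The rRNAs together took 39.6% to 48.7%, with 46.8%, 48.7% and 42.5% in 5xFAD hippocampus and 42.9%, 45.7%, 44.4% and 46.5% in WT hippocampus, which overlap. The share of mt-Co1 was higher in 5xFAD than in WT mice with no overlap in each region: 16.4% to 18.1% against 14.9% to 15.7% in cortex, 17.7% to 19.1% against 14.4% to 16.3% in hippocampus and 18.7% to 20.7% against 13.7% to 18.2% in cerebellum. Genotype within a region cannot be told apart from plate. On the second plate, which holds both genotypes, the ranges of 5xFAD cortex and WT cerebellum overlapped. Other members also separated without overlap in some regions. mt-Rnr1 was higher in 5xFAD cortex (3.79% to 4.31% against 3.21% to 3.42%) and lower in 5xFAD cerebellum (2.64% to 3.39% against 3.82% to 4.92%). mt-Nd4 was lower in 5xFAD cortex and mt-Nd2 in 5xFAD hippocampus. These shares were not tested, and mt-Co1 is among the members whose reads are uncertain. The ratio of mt-Rnr1 to mt-Rnr2 reads was 0.105 to 0.136 in the 8 sums of the second plate, which hold both genotypes, above the other 14 sums. It was 0.0786 to 0.0913 in WT cortex and 0.0634 to 0.0755 in WT hippocampus, both on the first plate, and 0.0689 to 0.0911 on the third. The part of this ratio in comparisons of mt-Rnr1 with the groups of the second plate was not tested.

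The tRNA genes gave few reads. Of 22 tRNA genes, 17 had a read and 12 were tested, and all 22 together had 9646 reads, between 0.125% and 0.288% of the mt- reads of a sum. The 6 with most reads were mt-Tl1 with 2116 reads, mt-Tq with 1717, mt-Tm with 1275, mt-Tp with 915, mt-Ti with 899 and mt-Tv with 433. edgeR called 0 of the 12 in each of the 9 comparisons. In 5xFAD against WT hippocampus, 3 of the 12 had an unadjusted p under 0.05, against 13.1% of all genes. DESeq2 called 2 of the 12 (mt-Tl1 and mt-Ts2), against 748 of all 17358 genes, and limma 0, against 372. The median log2 fold change of the 12 there was 1.67, and 6 of them did not overlap between the genotypes, where 7.21% of all genes did not in that direction. A single well of 5xFAD hippocampus mouse 2 held 393 of that sum's 1893 tRNA reads.

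Within 5xFAD mice, cells that expressed genes of the disease-associated microglia program had the higher mt- share in most mice. A cell was counted as panel-positive with at least 3 of 10 program genes (Cst7, Lpl, Itgax, Clec7a, Csf1, Spp1, Gpnmb, Axl, Ch25h and Igf1) at 10 or more reads, which held for 160 of 530 kept 5xFAD cells and 13 of 511 WT cells. In 5xFAD cortex the share in panel-positive and other cells was 2.07% and 1.55%, 2.31% and 1.49%, 3.14% and 1.65%, and 2.27% and 1.54% in the 4 mice. In 5xFAD hippocampus it was 4.11% and 2.31%, 5.27% and 2.28%, and 2.31% and 2.41%. In 5xFAD cerebellum it was 1.96% and 1.71%, 2.58% and 1.88%, and 2.30% and 1.53%. The panel-positive cells were higher in 9 of these 10 pairs, with a mean difference of 1.00 ± 0.89 percentage points (SD, n = 10 pairs of mouse and region), and the exception was 5xFAD hippocampus mouse 3. Panel-positive cells were few, 9 to 14 per mouse in cortex, 21 to 29 in hippocampus and 7 to 16 in cerebellum, and cells count by their reads in these shares. With medians over cells they were higher in 8 of 10, and the exceptions were then mouse 1 of cortex (-0.30 percentage points) and mouse 1 of cerebellum (-0.50), while hippocampus mouse 3 was higher by 1.02 percentage points.

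**Figure D5:**
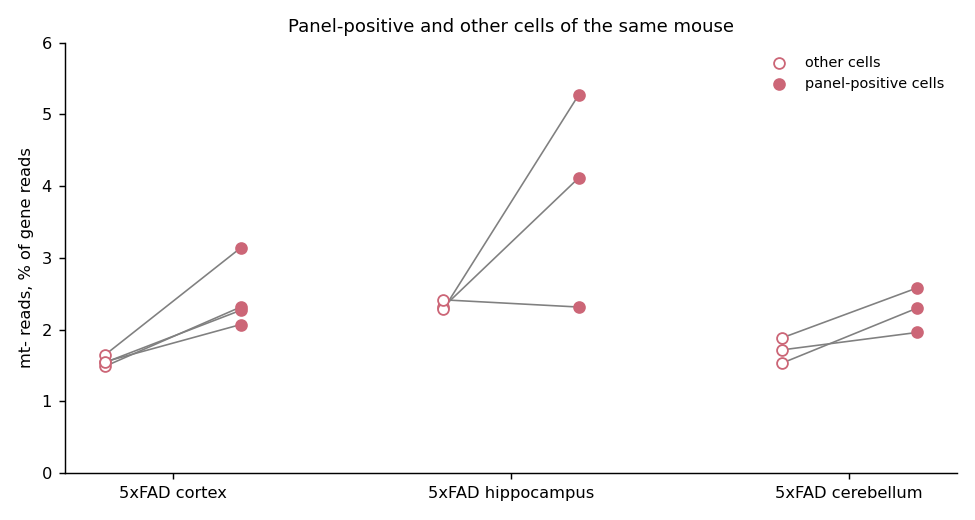
Share of gene reads on mitochondrially encoded genes (vertical axis, percent) in panel-positive cells (filled) and other cells (open) of the same 5xFAD mouse and region, joined by a line. The filled point is higher in 9 of the 10 pairs, and the open points of hippocampus, 2.28% to 2.41%, lie above those of cortex and cerebellum.

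The pairs were not tested, since regions of the same mouse are not independent and 3 or 4 mice per region cannot reach a p of 0.05 in an exact sign-flip test. By summed reads the other cells of 5xFAD hippocampus, at 2.28% to 2.41%, were above the whole sums of WT hippocampus, at 1.60% to 1.71%. By median over cells they were at 1.77%, 1.75% and 1.52%, which overlaps the 1.48% to 1.65% of WT hippocampus. Of the cells above 5% in 5xFAD hippocampus, 16 were among the 77 panel-positive cells and 5 among the 77 other cells. Panel-positive cells had medians of 2821 to 3397 genes in the hippocampus mice, against 2642 to 2755 in the other cells, and the medians overlapped in cortex (2631 to 3508 against 2740 to 2787). The part of this in the share was not tested.

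Nuclear genes that serve mitochondria did not move with the mitochondrially encoded genes past the test. Of 230 genes tested from 8 lists, edgeR called 0 in the 9 comparisons (98 of 2070 tests at an unadjusted p under 0.05), DESeq2 20 and limma 1. Of all 17358 genes, DESeq2 called 243 to 748 in a comparison and limma 6 to 372. In 5xFAD against WT hippocampus the count was 0 for edgeR with 14 of 230 at an unadjusted p under 0.05, against 13.1% of all genes, 5 for DESeq2, which called 748 of all 17358 genes, and 1 for limma. The nuclear-encoded subunits of the respiratory chain and ATP synthase, the partners of the members, had a median log2 fold change of 0.26 over 77 tested genes in hippocampus, with 60 positive, against 0.10 over all genes. Cox4i1, a complex IV subunit, had 0.84 ± 0.21 (adjusted p = 0.0584) and Atp5b, the catalytic subunit of the ATP synthase, had 0.55 ± 0.15 (adjusted p = 0.0947). In hippocampus against cerebellum of 5xFAD mice, the same list had a median of 0.51, with 68 of 77 positive, against 0.03 over all genes, and Cox4i1 had 0.98 ± 0.23 (adjusted p = 0.10). The 74 mitochondrial ribosomal protein genes had medians of -0.01 and 0.16 in these comparisons.

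Of the factors that copy, transcribe and process the mitochondrial genome, none passed in this comparison by edgeR. The median log2 fold changes in 5xFAD against WT hippocampus were -0.23 for 12 genes of mtDNA maintenance, -0.34 for 9 of mitochondrial transcription and 0.15 for 25 of mitochondrial RNA processing. The smallest p of the first list was that of Ssbp1, which binds single-stranded mitochondrial DNA, at -0.67 ± 0.31 (adjusted p = 0.368). In the second list it was Mterf1b (adjusted p = 0.382), and in the third Supv3l1, a helicase of mitochondrial RNA turnover, at 1.69 ± 0.92 (adjusted p = 0.435). The regulators of mitochondrial biogenesis had a median of 0.04 over 11 genes, with Gabpb1, a subunit of nuclear respiratory factor NRF-2, at -0.56 ± 0.43 (adjusted p = 0.656). Mitophagy had a median of -0.13 over 12 genes, with Park2, the ubiquitin ligase Parkin, at -1.64 ± 0.81 (adjusted p = 0.386). The mitochondrial stress response had -0.25 over 10 genes, with Asns having the smallest p (adjusted p = 0.359). The 5 nuclear-retained RNAs had a median of 1.18 in 5xFAD against WT hippocampus, with 3 positive, and -0.08 in cortex, with 2 positive. Of these 5, Malat1 alone passed, and it fell in 5xFAD hippocampus by 0.97 ± 0.12 (adjusted p = 7.84e-05) and in 5xFAD cortex by 0.77 ± 0.11 (adjusted p = 0.00109). The part of these RNAs in the mt- share was not tested.

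Marker levels of other cell types were read beside the higher share of 5xFAD hippocampus. The 10 microglia markers summed to 50722 to 57221 CPM there and to 68253 to 73392 CPM in WT hippocampus, with P2ry12, Tmem119 and Cx3cr1 called lower. The neutrophil list summed to 700 to 855 CPM in 5xFAD and 369 to 562 CPM in WT hippocampus. Its receptor gene Csf3r rose by 0.84 ± 0.17 (adjusted p = 0.0131), and 5 of its 7 genes were at 0 in WT (S100a8, S100a9, Retnlg, Camp and Ngp) and none in 5xFAD. The sum of the neutrophil list in WT hippocampus therefore came from Csf3r and Ly6g alone. In 5xFAD cortex the list summed to 608 to 701 CPM with S100a8, Ly6g and Retnlg at 0. The sum in 5xFAD hippocampus was not split by gene. Border macrophage markers summed to 6.05 to 14.6 CPM in 5xFAD with 2 of 8 at 0 (Cd163 and Cbr2), and to 0 to 344 CPM in WT with Lyve1 at 0. Monocyte markers summed to 3.04 to 10.1 CPM in 5xFAD and 1.54 to 15.4 CPM in WT, and neuron markers to 1.57 to 12.7 CPM and 0.387 to 37.7 CPM. Red blood cell markers were all at 0 in both. The part of these markers in the higher share was not tested.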

How the data were processed

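The authors deposited 1 table of raw counts without normalization, covering 48587 genes and 92 ERCC spike-in sequences in every well. Per the submitters' processing notes, the aligner was STAR 2.5.2b, the counter featureCounts 1.5.1 and the build GRCm38. Which annotation and strand setting were used, and how reads matching several places were treated, is not given in the sources used here. Where strand is not used, reads of overlapping genes on opposite strands, such as mt-Nd5 and mt-Nd6, cannot be told apart at the overlap. Both strands are transcribed as long precursors, so over the rest of mt-Nd6 its reads then cannot be told apart from RNA of the other strand either. In 96 deposited columns, those of plate columns 1 and 2, the counts of other wells of the same plate row had been added (wells 10 to 19 and 20 to 24). Subtraction gave 0 negative values, and 68 of the corrected wells were kept.

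Wells needed 500 genes, 10000 gene reads and an mt- share of no more than 20%, and counts were summed by mouse and region. The number called a mouse is the replicate number of the labels. Sums held 5696201 to 26669220 reads. Because reads without molecular identifiers are not independent molecules, floors and limits cover counting error only. Tests were run in R 4.3.3 with edgeR 4.0.16. The filterByExpr function kept 17358 genes, TMM factors scaled the sums, and the quasi-likelihood model held the 22 sums together, 1 coefficient for each group, with the regions treated as independent although they came from the same mice. P-values were adjusted across those genes by Benjamini-Hochberg and read at 0.05. The SE of a log2 fold change is its size over the square root of F. Summed shares, makeup and lists of members have no test. Overlap between mice was read on the TMM-scaled log2 CPM. The fitting was tested on simulated data.

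Alternatives were DESeq2 1.42.0, limma 3.58.1 on log2(mean CPM over cells + 1), library sizes from nuclear genes, ERCC scaling, no filter, a stricter filter (50 reads in 3 sums), no mt- limit, a limit of 10%, the columns as deposited, leaving out plate columns 1 and 2, a replicate block, fits of only the groups compared and leaving out each mouse. The interaction terms under these alternatives and the 5% line were added after the data had been seen. The members and gene lists were chosen with earlier results of these data known. Members were named with per-mouse values where they passed in a genotype or within-plate comparison, at most 6 by smallest p, with both rRNAs and mt-Nd6 added, and in each other list the genes called or the 1 or 2 with the smallest p. mt-Nd2 and mt-Co1 outside hippocampus were given after their values were seen. Sequences and shared windows of 50 bases come from GENCODE M21 transcripts.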

Additional observations from a re-analysis of the deposited data

Results flagged for a closer look

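In 51 groups of 4 mice looked at for a mouse apart from the others, 2 were found, where chance gives about 1 in 20 groups. The ratio of mt-Rnr1 to mt-Rnr2 reads was 0.0755 in 1 WT hippocampus mouse, against 0.0643 in the nearest of the other mice. mt-Nd5 was 10.11 log2 CPM in 1 WT hippocampus mouse, against 9.86 in the nearest. The tests of whether the 5xFAD effect differs between regions passed for 8 gene and region pairs. Such a difference cannot be told apart from plate. Between hippocampus and cortex, the effect on the log2 scale was larger in hippocampus by 1.23 for mt-Rnr2, 1.13 for mt-Co1 and 1.09 for mt-Nd5. Between hippocampus and cerebellum it was larger in hippocampus by 1.93 for mt-Rnr1, 0.97 for mt-Rnr2, 0.91 for mt-Co1, 0.91 for mt-Nd5 and 1.23 for mt-Cytb.

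Data outside the comparisons also carried signal. The 12 blank wells held 1075 mt- reads among 56684 reads in genes, 1 to 665 per well, whereas kept cells had a median of 4053 mt- reads each. The pseudogene Gm28438, which is no member, had 841 reads in the 10 sums of 5xFAD mice and 6 in the 12 sums of WT mice.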

How the results depend on the processing

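No called fold change and no difference in share without overlap turned its direction, but values near 0 did and the counts of called members, here with mt-Nd3 among the 10, moved. The difference in mt- share between 5xFAD and WT was -0.0339 percentage points in cortex (0.0352 as a median over cells, -0.1045 to 0.0102 without a mouse) and 0.0554 in cerebellum (-0.0222 to 0.1406 without a mouse). The median of the 9 other members, 0.01 in both regions, was -0.04 in cortex and -0.02 in cerebellum with DESeq2. In WT hippocampus against cerebellum it was -0.03, and 0.34 with ERCC scaling. The 9 members called in 5xFAD against WT hippocampus, mt-Nd3 and 8 others, were 5 with a 10% limit on the mt- share and 5 with limma, and 6 to 8 on leaving out a mouse. The 1 of cortex was mt-Nd3, which is at 0 in every 5xFAD sum, so that its calls are a description. The count there was 3 with ERCC scaling (mt-Rnr1 and mt-Co1 beside mt-Nd3) and 0 with no filter, with the stricter filter, with only the groups compared and on leaving out any mouse (0 to 0). The 0 of cerebellum was 1 with no filter (mt-Co1) and 1 with DESeq2 (mt-Nd3). In WT, cerebellum against cortex was 1 with DESeq2, and hippocampus against cerebellum was 2 with no filter, 1 with a 10% limit and 2 with DESeq2. In 5xFAD, the 3 of hippocampus against cortex were 0 with ERCC scaling, 5 with no filter, 5 with no mt- limit, 1 with a 10% limit, 0 with the deposited columns, 0 with only the groups compared and 7 with DESeq2, and 3 to 4 without a mouse. The 8 of hippocampus against cerebellum were 0 with ERCC scaling, 2 with a 10% limit, 0 with the deposited columns, 0 with only the groups compared and 2 with limma, and 2 to 8 without a mouse. The interaction of hippocampus and cortex, 3, was 0 with ERCC scaling, 6 with no filter, 0 with a 10% limit, 0 with the deposited columns, 8 with DESeq2 and 1 with limma, and 0 to 4 without a mouse. That of hippocampus and cerebellum, 5, was 0 with ERCC scaling, 1 with a 10% limit, 0 with the deposited columns, 3 without plate columns 1 and 2 and 1 with limma, and 1 to 6 without a mouse. The difference in mt- share between 5xFAD and WT hippocampus, 1.56 percentage points, was 0.575 as a median over cells, 0.439 with only cells of at most 5% and 1.13 to 1.99 without a mouse. The causes of these shifts were not tested. Over all genes, DESeq2 called 748 in 5xFAD against WT hippocampus where edgeR called 176, 243 against 6 in hippocampus against cortex of 5xFAD and 367 against 8 in its interaction. In 5xFAD against WT cerebellum these counts were 324 against 8. In WT they were 549 against 48 in cerebellum against cortex and 710 against 65 in hippocampus against cerebellum. In hippocampus against cerebellum of 5xFAD, 0 of 17244 genes were called with the deposited columns and 5 of 13065 with only the groups compared.

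With a replicate block, the counts were 0 in 5xFAD against WT cortex, 7 in 5xFAD against WT hippocampus, 4 in hippocampus against cerebellum of 5xFAD, and 0 and 3 for the interactions of hippocampus with cortex and with cerebellum. For regions and interactions the block was the replicate number within a genotype. For comparisons of genotypes it was the number across genotypes, where equal numbers mark different mice. Same-numbered sums did not deviate together: deviations from group means over 10398 genes correlated at -0.0434 to 0.0216 in 21 pairs of the same genotype and number, and at -0.0126 to 0.0208 in 10 pairs of the same region and number. mt-Nd3 had at most 46 reads in a sum, and the 22 tRNA genes had 9646 reads in all.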
